A study of Mus musculus with 63 samples.

Results

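Neural stem cells (NSC) and basal progenitors (BP) of the mouse dorsal cerebral cortex were set side by side on embryonic day E18.5, the last day before birth that was sampled. The members are the 6 bulk RNA-seq libraries of these cell classes at that age, 3 of NSC and 3 of BP, out of 63 libraries in all, and every gene of the table was considered. All libraries came from C57Bl/6 embryos with a Ski knock-out, so the deletion was shared by both classes and no wild-type library was used here. NSC were GFP-positive cells sorted from Hes5::GFP, Ski knock-out embryos at E18.5, and BP were GFP-positive cells sorted from Tbr2::GFP, Ski knock-out embryos at E18.5. Newborn neurons (NBN) of E18.5, 3 libraries, also came from Tbr2::GFP, Ski knock-out embryos and are given as side values. The labels state neither the number of embryos behind a library nor how BP and NBN were parted within the Tbr2::GFP line. The p-values therefore rest on a spread between libraries that may be technical. That spread was estimated from all 63 libraries, not from the 6 members alone. Because the classes came from different reporter lines, cell class and reporter line cannot be told apart.

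Neural stem cells of the embryonic cortex, the radial glia, line the ventricle and are kept undifferentiated by Notch signalling, whose receptors act through the cofactor RBPJ to switch on HES repressors such as Hes5. Their neurogenic daughters, the basal progenitors, switch on Tbr2 (gene Eomes), leave the ventricle and divide to give excitatory neurons. Towards birth, radial glia turn from making neurons to making astrocytes and oligodendrocyte precursors. SKI, the product of the deleted gene, is a corepressor that binds SMAD proteins of the TGF-β and BMP pathways. The comparison on this day sets cells at the start of gliogenesis against the last cells of the neurogenic branch.

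Of the genes behind the sorts, Hes5 parted the classes as labelled and Eomes did not. Hes5, the effector that drives the NSC reporter, had 113, 118 and 133 TPM in NSC and 3.11, 3.64 and 2.61 TPM in BP. The ranges did not overlap, and the difference on the log2(TPM + 1) scale was 4.89 ± 0.45 (adjusted p = 2.92e-12); here and below, the value after ± is the standard error of the fitted difference, TPM are shares of all transcripts, corrected for transcript length and scaled to the same total in each library, and p-values are adjusted over all 15231 genes tested. Eomes, which drives the BP reporter, had 202, 541 and 532 TPM in NSC and 463, 463 and 425 TPM in BP, with 10.1, 12.3 and 6.13 TPM in NBN. NSC replicates 2 and 3 read above every BP library and replicate 1 below, and the difference of -0.21 ± 0.43 (adjusted p = 0.802) did not pass. In bulk RNA a few cells with much of a transcript and many cells with little cannot be told apart. Ski read 48.6, 40.3 and 39.2 TPM in NSC and 31.6, 34 and 31.4 TPM in BP, a difference of 0.38 ± 0.16 (adjusted p = 0.0891). That whole-gene level does not check the deletion, since the part of the gene that was removed is not stated in the labels and no wild type was used. Its paralogue Skil read 35.4, 40.7 and 43.3 TPM in NSC and 29.6, 29.3 and 35.5 TPM in BP and did not pass at 0.33 ± 0.31 (adjusted p = 0.527).

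NSC replicate 1 stood apart from the other libraries of its group. Its Pearson correlation with NSC replicates 2 and 3 over the tested genes was 0.969 and 0.966, against 0.995 between those 2, and between 0.963 and 0.964 with the BP libraries. The summed level of 25 radial glia genes was 6988 TPM in replicate 1 and 11970 and 12570 TPM in replicates 2 and 3, against 2485 to 2673 TPM in BP. The summed level of 26 neuronal differentiation genes was 8999 TPM in replicate 1 and 5117 and 4686 TPM in replicates 2 and 3, against 8540 to 8979 TPM in BP. Its summed microglia and macrophage genes were at 65.2 TPM as well, with 17.9 and 11.7 TPM in the other NSC libraries and 9.37 to 10.4 TPM in BP. Some counts and departures below are given with and without this library, and others only with it. Differences of single genes at E18.5 include it, and calls of named genes that were lost without it are stated. The labels call every embryo female, yet 4 of the 6 libraries carried Y-linked RNA: Ddx3y had 32.9, 0.912 and 30.8 TPM in NSC and 0.193, 20.3 and 26.8 TPM in BP, while Xist, the X-inactivation transcript, had 7.31, 225 and 7.03 TPM in NSC and 195, 1.39 and 1.33 TPM in BP. Each class had libraries of both patterns, and neither gene passed the test between classes.

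**Figure D1:**
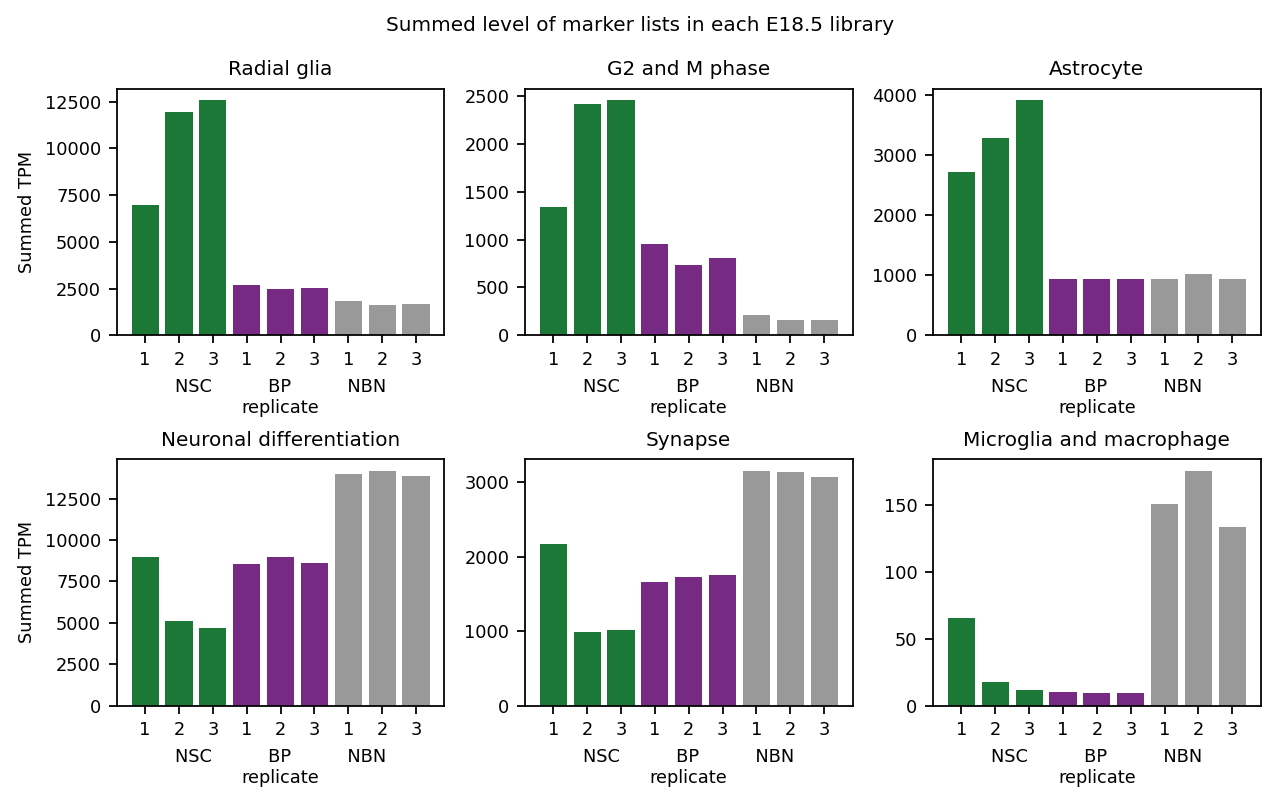
Summed TPM (y axis, from 0) of the genes of 6 marker lists in each E18.5 library of NSC, BP and NBN, with the replicate number on the x axis. In NSC replicate 1 the radial glia and G2/M sums lie below those of NSC replicates 2 and 3, and the neuronal differentiation, synapse and microglia sums lie above them.

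Across all genes, the difference between the classes was lopsided. Of 15231 genes tested, 1149 (7.54%) were called higher in NSC and 144 (0.945%) lower, at an adjusted p under 0.05 and a log2 difference of at least 1. Without NSC replicate 1 the counts were 1340 (8.8%) and 336 (2.21%), and 1097 of the 1149 and 133 of the 144 genes were called in both. Without NSC replicate 3, 83 were lower. Quantile scaling shifted the median difference of all genes by -0.124 and gave 74.0% of calls as higher in NSC, against 88.9% as reported. Of the 1149 genes called higher and the 144 called lower, 719 and 83 averaged 10 TPM or more in either class without overlap of their 3 and 3 libraries. How many of all tested genes met those limits is not given. The 12 largest of these were Olig1, Tnc, Ednrb, Dlx1, Aldh1l1, Mlc1, Pdgfra, Hes5, Aldoc, Dlx2, Lfng and Mt2 on the NSC side. On the BP side they were Ttr, Reln, Trp73, Nhlh2, Rerg, Rgs4, Lhx9, Calb2, Nhlh1, Ndnf, Mia and Grp.

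**Figure D2:**
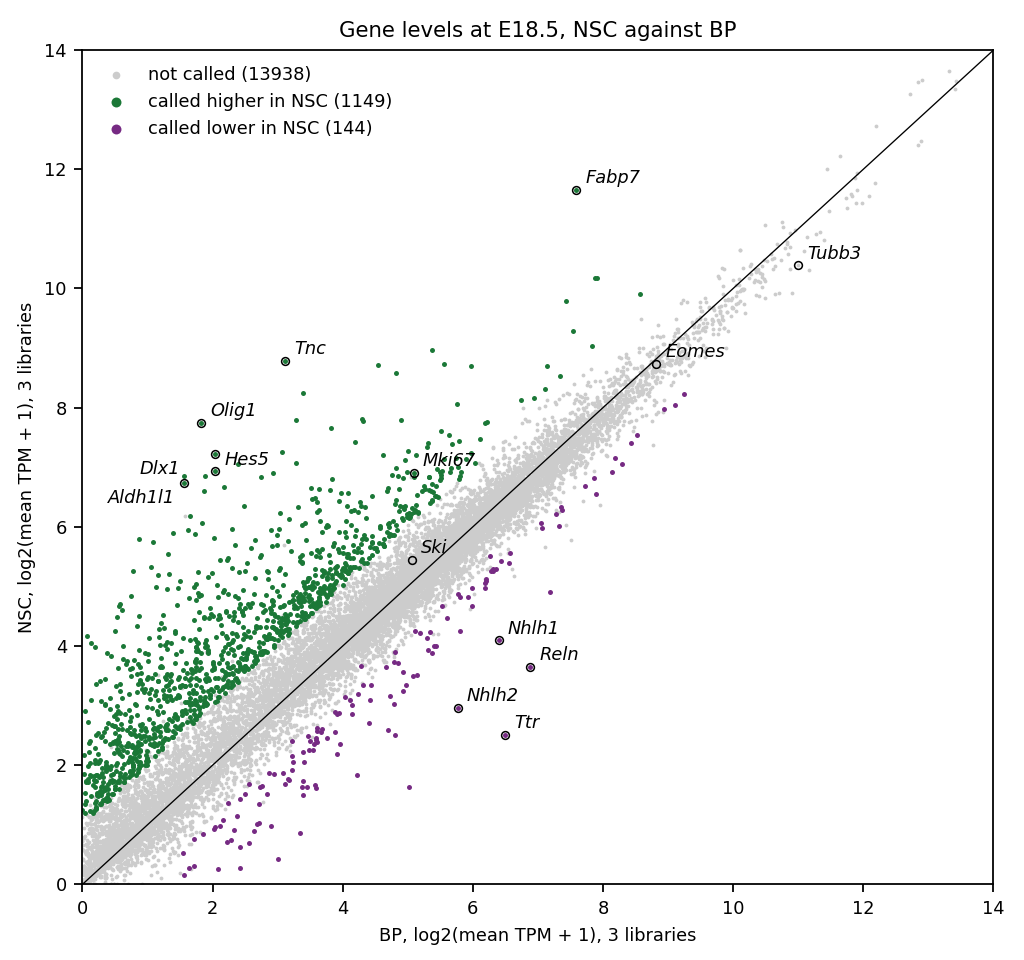
Mean level of each tested gene in the 3 NSC libraries (y axis) against the 3 BP libraries (x axis) of E18.5, both as log2(mean TPM + 1), with the line of equality. The 1149 genes called higher in NSC spread far from the line, the 144 called lower lie close to it apart from a few such as Reln, Nhlh2 and Ttr, and Eomes sits on it.

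Most radial glia genes were higher in NSC. Of 25 list members, all tested, 19 were called higher and 0 lower, with a median difference of 2.71 against 0.05 over all tested genes. Fabp7, a fatty acid binding protein of radial glia, had 1722, 4114 and 3844 TPM in NSC and 213, 162 and 199.6 TPM in BP, the highest NSC level of the genes named here. Its difference was 3.98 ± 0.32 (adjusted p = 5.98e-14), and NSC replicate 1 was at less than the other NSC libraries but still above every BP library. The glutamate transporter gene Slc1a3 had 355, 508 and 641 TPM in NSC and 40.6, 37 and 43.4 TPM in BP, a difference of 3.57 ± 0.28 (adjusted p = 1.97e-14). Tnc, the matrix protein tenascin C, had 333, 451 and 541 TPM in NSC and 10.1, 7.24 and 5.66 TPM in BP and differed by 5.68 ± 0.39 (adjusted p = 1.76e-16). Ednrb, the endothelin B receptor, had 86.1, 118 and 140.3 TPM in NSC and 1.99, 1.7 and 2.11 TPM in BP, with a difference of 5.27 ± 0.37 (adjusted p = 2.78e-16). For each of these genes the 3 NSC libraries lay above the 3 BP libraries. Hopx, a marker of outer radial glia in human cortex, had 54.7, 73.8 and 94.9 TPM in NSC and 7.7, 6.9 and 7.06 TPM in BP (3.17 ± 0.44), and the stem cell factor Sox2 had 147, 213 and 222 TPM in NSC and 44.7, 37.5 and 51.1 TPM in BP (2.09 ± 0.28).

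The 6 members that were not called included dorsal patterning factors. Pax6 read 91.7, 192 and 199 TPM in NSC and 79.8, 74.7 and 81.2 TPM in BP, with no overlap, and its difference of 0.95 ± 0.31 (adjusted p = 0.0207) passed the p but stayed under the fold limit. Emx2 and Lhx2 read higher in BP than in NSC, at -0.68 ± 0.22 (adjusted p = 0.0213) and -0.38 ± 0.23 (adjusted p = 0.26). Lhx2 had 390.3, 482 and 530.5 TPM in NSC and 603, 611 and 599 TPM in BP, so this regulator of cortical identity was plentiful in both classes. Nes, encoding nestin, had 72.4, 133 and 142 TPM in NSC and 29, 25.8 and 23.8 TPM in BP (difference 2.05 ± 0.25, adjusted p = 5.71e-09). Vim, the intermediate filament vimentin, had 688, 1354 and 1432 TPM in NSC and 238, 275 and 191 TPM in BP and was called higher in NSC at 2.24 ± 0.24 (adjusted p = 1.61e-10). Ddah1 and Mfge8 differed by 4.43 and 4.13, and the SOX factor Sox9 by 2.92, all called.

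Some Notch pathway genes were higher in NSC. Of 24 members tested (of 25 listed), 10 were called higher in NSC and 0 lower, with a median of 0.67. Over all tested genes 7.54% were called higher and 0.945% lower, so 0 lower is near the share over all genes. Hes5, whose reporter was used to sort NSC, is among the 10. All 3 receptors listed were higher: Notch1 had 75, 127 and 142 TPM in NSC and 27.6, 29 and 27 TPM in BP, a difference of 1.95 ± 0.25 (adjusted p = 1.52e-08). Notch2 differed by 3.09 ± 0.28 (adjusted p = 1.97e-12) and Notch3 by 3.24 ± 0.26 (adjusted p = 1.85e-14). Lfng, which adds sugars to the receptors and alters their response to ligands, had 38.6, 51.9 and 67 TPM in NSC and 1.32, 1.25 and 0.806 TPM in BP, a difference of 4.63 ± 0.33 (adjusted p = 8.78e-16). Its relative Mfng ran the other way in level, with 54.6, 117 and 106 TPM in NSC and 141, 134.8 and 129 TPM in BP, but at -0.61 ± 0.24 (adjusted p = 0.0575) it did not pass. Among ligands, Jag1 was called at 1.77 ± 0.26 (adjusted p = 5.27e-07), whereas Dll1 and Dll3 had differences of 0.79 ± 0.17 (adjusted p = 0.000369) and 0.56 ± 0.28 (adjusted p = 0.152), under the fold limit for Dll1 and past neither limit for Dll3. Among targets, Hes1 had 20.1, 31.2 and 41.5 TPM in NSC and 1.99, 1.08 and 0.477 TPM in BP and was called at 3.87 ± 0.53 (adjusted p = 1.2e-07). Nrarp, a feedback inhibitor of the pathway, had 48.6, 89.3 and 100.1 TPM in NSC and 20, 21.8 and 16.1 TPM in BP and was called at 1.93 ± 0.27 (adjusted p = 2.17e-07). Hey1 was called at 1.03 ± 0.25 (adjusted p = 0.00158), a call that was lost under 6 alternatives. Hes6, which opposes HES1, read 144, 210.1 and 207 TPM in NSC and 233, 223 and 219 TPM in BP and was not called. The shared cofactor Rbpj had 73.7, 99.9 and 98.7 TPM in NSC and 91.2, 92.5 and 97.7 TPM in BP, with overlapping ranges and a difference of -0.06 ± 0.17 (adjusted p = 0.868).

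The 250 bases before the start of these genes were read for the letters GTGGGAA, the core that RBPJ binds, on both strands, in RefSeq sequence of GRCm38.p6. Upstream sequence was at hand for 8 of the 10 called Notch genes, and 2 held a match: Hes5 with 2 matches and Lfng with 1. It was not at hand for the targets Hes1 and Hey1, which were therefore not searched. Among all 32851 upstream sequences of the table, 5.42% held a match and 0.161% held at least 2. The window of Hes5 is chr4:154960673-154960922 and that of Lfng chr5:140607091-140607340, both on the plus strand, and both are shown because these were the Notch genes with the largest differences. Capitals mark the matches, read 5′ to 3′, and TTCCCAC is the same motif on the opposite strand. A match describes the letters and is not a measured binding site.
Hes5 upstream: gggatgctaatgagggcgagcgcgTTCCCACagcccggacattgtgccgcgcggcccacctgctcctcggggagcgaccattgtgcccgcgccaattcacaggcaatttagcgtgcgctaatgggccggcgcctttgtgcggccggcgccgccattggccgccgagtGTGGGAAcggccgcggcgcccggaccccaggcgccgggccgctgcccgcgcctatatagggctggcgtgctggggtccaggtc
Lfng upstream: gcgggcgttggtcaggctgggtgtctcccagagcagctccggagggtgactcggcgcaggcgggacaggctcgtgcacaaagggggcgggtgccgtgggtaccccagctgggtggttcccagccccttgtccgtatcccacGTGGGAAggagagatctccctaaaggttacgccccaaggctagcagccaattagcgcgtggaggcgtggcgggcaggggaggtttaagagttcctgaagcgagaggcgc
The Hes5 matches begin 226 and 83 bases before the start and lie on opposite strands, and the Lfng match begins 109 bases before it.

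**Figure D3:**
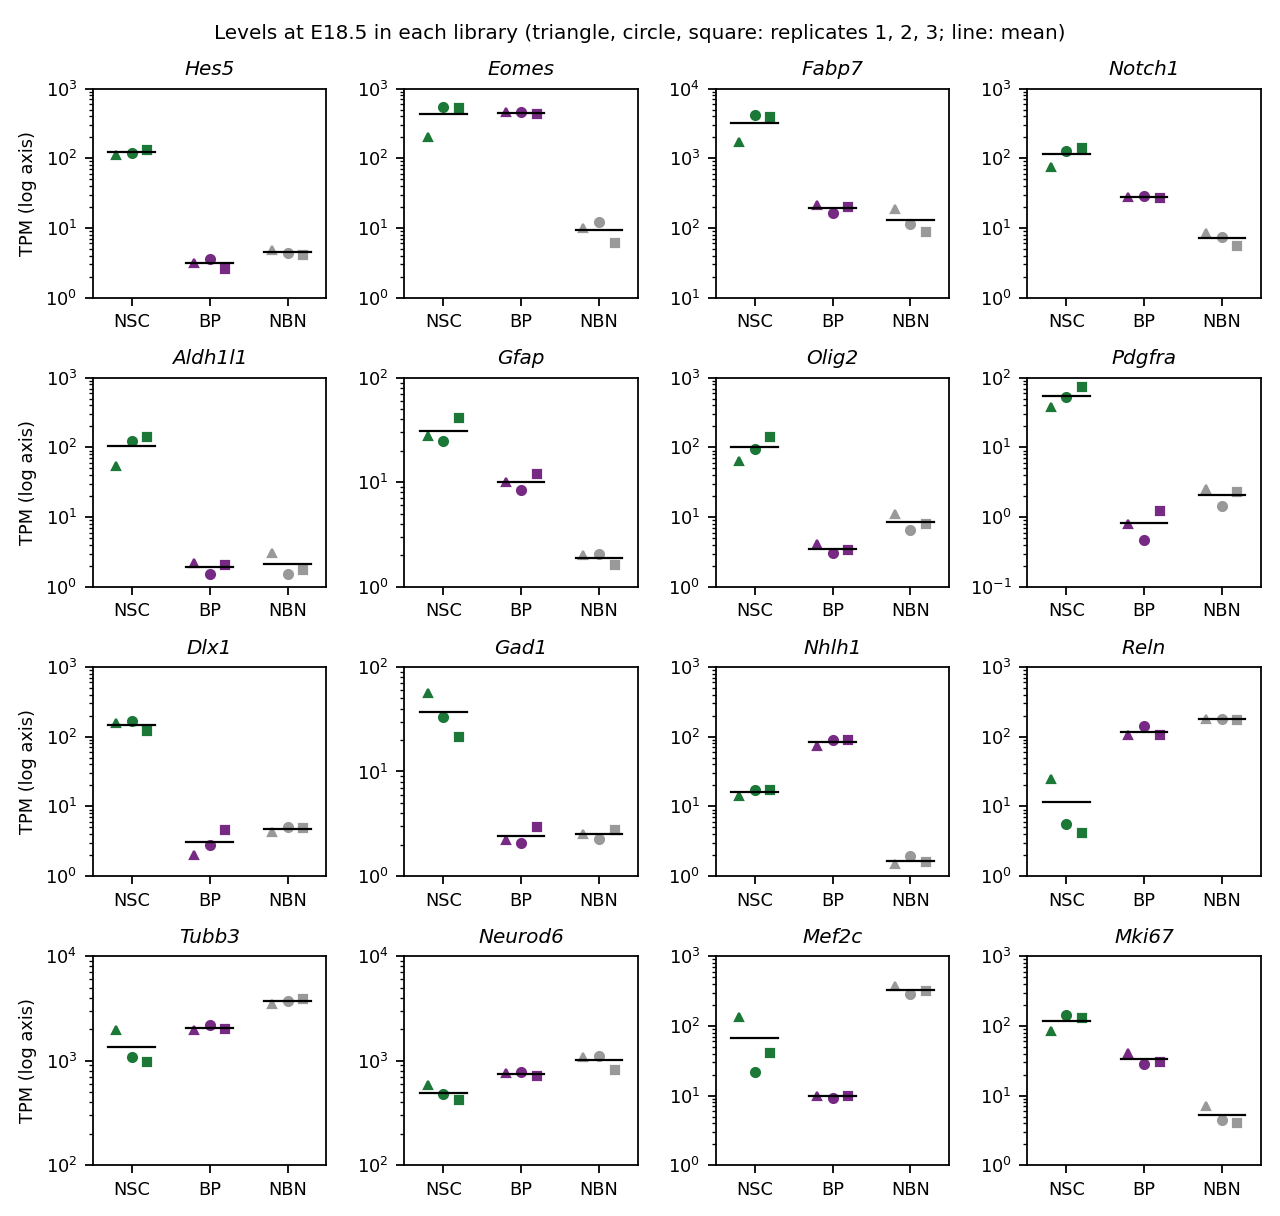
TPM (log axes) of 16 genes in each E18.5 library of NSC, BP and NBN, with triangle, circle and square for replicates 1, 2 and 3 and a line at the mean. NSC lie above BP for Hes5, Fabp7, Notch1 and the glial and ventral genes, below for Nhlh1 and Reln, and both overlap for Eomes; NSC replicate 1 is the triangle that lies towards NBN for Tubb3 and Mef2c.

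Most astrocyte genes were higher in NSC. The list had 30 genes, of which 28 were tested, 21 were called higher and 0 lower, with a median of 1.92. Aldh1l1, a folate enzyme used as a pan-astrocyte marker, had 54.2, 123 and 140.2 TPM in NSC and 2.23, 1.54 and 2.06 TPM in BP, a difference of 5.08 ± 0.30 (adjusted p = 2e-18). Mlc1, a membrane protein of astrocyte endfeet, had 82.6, 114 and 146 TPM in NSC and 3.18, 3.07 and 1.85 TPM in BP and differed by 4.95 ± 0.30 (adjusted p = 2.74e-18). Aldoc, the brain aldolase, had 193, 326 and 391 TPM in NSC and 12.6, 9.38 and 6.56 TPM in BP, a difference of 4.84 ± 0.65 (adjusted p = 6.52e-08). Neither the water channel Aqp4 nor the filament gene Gfap was abundant: Aqp4 had 8.19, 11.47 and 15 TPM in NSC and 0.847, 0.818 and 0.879 TPM in BP, and Gfap had 27.4, 24.6 and 40.8 TPM in NSC and 10.1, 8.51 and 11.9 TPM in BP. Both were called, at 2.73 ± 0.16 (adjusted p = 2.33e-18) and 1.49 ± 0.28 (adjusted p = 6.1e-05), and for both the lowest NSC library was above the highest BP library. The lipid carrier gene Apoe had 413, 375 and 486 TPM in NSC and 45.7, 47.9 and 44.4 TPM in BP, and Clu, encoding clusterin, had 153, 162 and 199 TPM in NSC and 20.7, 16.47 and 14.3 TPM in BP. They differed by 3.17 ± 0.46 (adjusted p = 4.16e-07) and 3.25 ± 0.25 (adjusted p = 4.34e-15). Hepacam, a cell adhesion molecule of astrocytes, differed by 3.52 ± 0.22 (adjusted p = 6.9e-18). Slc1a2, the main glutamate transporter of mature astrocytes, was an exception with 73.5, 79.8 and 107 TPM in NSC and 74.4, 75 and 87.1 TPM in BP and a difference of 0.12 ± 0.43 (adjusted p = 0.896). NBN held 18.1, 20.1 and 15.9 TPM of it.

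Regulators linked to astrocyte formation, transcription factors among them, were called in part. Of 15 tested, 6 were called higher in NSC and 0 lower (median 0.49). The nuclear factor I genes were plentiful in both classes and read higher in BP. Nfia had 65.6, 79.1 and 90.2 TPM in NSC and 75.7, 86.8 and 89.2 TPM in BP, Nfib 389, 479 and 490 TPM in NSC and 594, 593 and 661 TPM in BP and Nfix 1047, 883 and 962 TPM in NSC and 1488, 1595 and 1725 TPM in BP. Their differences of -0.11 ± 0.45 (adjusted p = 0.914), -0.45 ± 0.55 (adjusted p = 0.643) and -0.73 ± 0.47 (adjusted p = 0.305) did not pass. Zbtb20, another promoter of astrocyte fate, had 129, 107 and 114.7 TPM in NSC and 163, 173 and 219.6 TPM in BP and did not pass at -0.65 ± 0.52 (adjusted p = 0.436). Those called included Klf15, with 13.4, 21.5 and 26.8 TPM in NSC and 2.87, 2.35 and 1.59 TPM in BP and a difference of 2.69 ± 0.21 (adjusted p = 1.69e-14), and the RNA-binding protein gene Zcchc24, at 3.16 ± 0.22 (adjusted p = 3.54e-16).

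Genes of the cytokine route to astrocytes, which runs from the LIF and CNTF receptors through JAK kinases to STAT3, showed 1 call in each direction among 16 tested of 19 listed. Their median was 0.12, and -0.07 with quantile scaling. Over all tested genes 7.54% were called higher and 0.945% lower, so 1 higher is near the share over all genes. The ligand-binding receptor Cntfr was higher in NSC, with 93.7, 124 and 141 TPM in NSC and 48.1, 56.9 and 42.9 TPM in BP and a difference of 1.25 ± 0.17 (adjusted p = 4.09e-08). The shared receptor Il6st had a difference of 0.58 ± 0.16 (adjusted p = 0.00636), under the fold limit, and Lifr had 0.26 ± 0.28 (adjusted p = 0.595). Stat3 itself read 32.3, 26.1 and 30.4 TPM in NSC and 41.5, 49.3 and 57.9 TPM in BP, higher in BP with no overlap, but at -0.72 ± 0.23 (adjusted p = 0.0204) it stayed under the fold limit. Socs2, a suppressor of cytokine signalling, was lower in NSC with 63.9, 34 and 28 TPM in NSC and 76.6, 88.1 and 92.7 TPM in BP. Its difference was -1.10 ± 0.26 (adjusted p = 0.00104), and the call was lost without NSC replicate 2 or without NSC replicate 3.

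Oligodendrocyte lineage genes of the early steps were higher in NSC, and the myelin gene Mbp was not called. Of 23 listed genes, 21 were tested, 15 were called higher and 0 lower, with a median of 1.81. With 5 TPM in place of 1 added before taking logs, 9 were called higher. Olig1, a lineage factor, had 149, 191 and 299 TPM in NSC and 3.13, 1.9 and 2.58 TPM in BP, a difference of 5.88 ± 0.42 (adjusted p = 8.74e-16) and the largest on the NSC side among genes with at least 10 TPM. Its neighbour Olig2 had 63.3, 96 and 143 TPM in NSC and 4.1, 3.05 and 3.34 TPM in BP and differed by 4.43 ± 0.45 (adjusted p = 5.46e-11). Pdgfra, the growth factor receptor of oligodendrocyte precursors, had 38.2, 52.5 and 73.5 TPM in NSC and 0.802, 0.465 and 1.22 TPM in BP, a difference of 4.90 ± 0.28 (adjusted p = 4.3e-19). In each of these genes NSC replicate 3 was the highest library and replicate 1 the lowest of NSC, and BP stayed far below. Sox10 had 11.3, 13.8 and 21.6 TPM in NSC and 0.127, 0.0468 and 0.129 TPM in BP, and Gpr17, a receptor of committed precursors, had 15.2, 15.1 and 20.6 TPM in NSC and 0, 0.0794 and 0.0843 TPM in BP, listed at 0 in a BP library. Their differences of 3.86 ± 0.25 (adjusted p = 2.19e-17) and 4.08 ± 0.21 (adjusted p = 1.84e-20) are on a scale with 1 TPM added, which understates changes of such low values. Cspg4, the NG2 proteoglycan, had 7.5, 8.71 and 13.1 TPM in NSC and 0.824, 0.97 and 0.729 TPM in BP (2.51 ± 0.15), Sox8 differed by 2.62 ± 0.30, and Egfr, the EGF receptor, had 24.6, 44.3 and 59 TPM in NSC and 3.86, 1.84 and 4.33 TPM in BP (difference 3.30 ± 0.28, adjusted p = 1.26e-13). Mbp, a component of myelin, read 11.2, 9.34 and 9.41 TPM in NSC and 12.2, 14.6 and 11.47 TPM in BP and did not pass, at -0.32 ± 0.16 (adjusted p = 0.162).

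Genes of ventral precursors and interneurons, cells that arise outside the dorsal cortex and migrate in, were also higher in NSC. Of 27 listed genes, 25 were tested, 20 were called higher and 1 lower, with a median of 2.43. Dlx1, a homeobox factor of ventral precursors, had 156, 168 and 119 TPM in NSC and 1.98, 2.79 and 4.54 TPM in BP, a difference of 5.21 ± 0.60 (adjusted p = 1.45e-09). Dlx2 had 94.6, 110.3 and 84.3 TPM in NSC and 2.65, 1.49 and 3.83 TPM in BP (difference 4.78 ± 0.59, adjusted p = 7.25e-09) and Dlx5 had 41.2, 42.6 and 27.6 TPM in NSC and 0.758, 0.412 and 0.953 TPM in BP (difference 4.47 ± 0.53, adjusted p = 3.31e-09). NSC replicate 3 was the lowest NSC library for all 3 Dlx genes named, and it was the highest for the called oligodendrocyte genes named above, though not for Mbp. Sp9, a zinc finger factor of the same precursors, differed by 4.11 ± 0.49 (adjusted p = 3.48e-09), and Gsx2, which sets lateral ventral identity, by 3.45 ± 0.44 (adjusted p = 1.52e-08).

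The interneuron genes of later steps were most abundant in NSC replicate 1. Gad1, which makes the transmitter GABA, had 56.2, 32.9 and 21.5 TPM in NSC and 2.23, 2.06 and 2.95 TPM in BP and Gad2 had 24.9, 17.8 and 12.6 TPM in NSC and 2.85, 1.87 and 2.65 TPM in BP, called at 3.38 ± 0.61 (adjusted p = 2.32e-05) and 2.46 ± 0.50 (adjusted p = 0.000172). Lhx6, a factor of medial interneurons, had 30.6, 8.31 and 7.83 TPM in NSC and 1.73, 1.48 and 1.47 TPM in BP, and the GABA vesicle transporter gene Slc32a1 had 20.2, 10.3 and 6.83 TPM in NSC and 0.554, 0.59 and 0.658 TPM in BP, called at 2.43 ± 0.50 (adjusted p = 0.000185) and 2.95 ± 0.54 (adjusted p = 3.46e-05). Nkx2-1, the medial precursor factor, read 3.56, 1.84 and 1.83 TPM in NSC and 0.612, 1.43 and 0.62 TPM in BP and did not pass at 0.85 ± 0.82 (adjusted p = 0.537). Etv1 had 56.6, 100.9 and 104 TPM in NSC and 10.7, 13.1 and 8.06 TPM in BP, a difference of 2.90 ± 0.60 (adjusted p = 0.000237). Prox1 was the 1 member lower in NSC, with 42.1, 15.8 and 15.8 TPM in NSC and 53.1, 48.7 and 86.1 TPM in BP and a difference of -1.42 ± 0.46 (adjusted p = 0.0191); the call was lost without NSC replicate 2, NSC replicate 3 or BP replicate 3. Without NSC replicate 1 the list gave the same counts, 20 higher and 1 lower.

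Genes of dividing cells were higher in NSC, but how many were called depended on single libraries. Of 27 G2 and M phase genes, all tested, 22 were called higher and 0 lower (median 1.32), and of 26 S phase genes 10 were called higher and 0 lower (median 0.80). Mki67, the Ki-67 proliferation antigen, had 83.9, 141 and 132 TPM in NSC and 40.2, 28.3 and 30.7 TPM in BP, with 7.14, 4.47 and 3.99 TPM in NBN. Its difference was 1.80 ± 0.58 (adjusted p = 0.0195), a call lost on leaving out NSC replicate 2 or 3 or BP replicate 2 or 3. Top2a, a topoisomerase of mitotic chromosomes, had 130.2, 255 and 254 TPM in NSC and 84.5, 58.1 and 73.3 TPM in BP and differed by 1.51 ± 0.43 (adjusted p = 0.00757), a call lost without NSC replicate 2 or NSC replicate 3. Cdk1, the mitotic kinase, had 59.6, 122 and 124 TPM in NSC and 50.2, 37.3 and 39 TPM in BP, a difference of 1.19 ± 0.31 (adjusted p = 0.003). In these 3 genes NSC replicate 1 was lowest of its group and still above BP. The replication helicase gene Mcm3 and the methylation maintenance gene Uhrf1 differed by 1.54 ± 0.29 (adjusted p = 5.62e-05) and 1.43 ± 0.27 (adjusted p = 6.42e-05). The G1 cyclin genes Ccnd1 and Ccnd2 were called at 1.97 ± 0.25 (adjusted p = 2.21e-08) and 1.495 ± 0.28 (adjusted p = 5.95e-05), with Ccnd2 at 264, 496 and 476 TPM in NSC and 152, 139.9 and 129.7 TPM in BP. The inhibitor gene Cdkn1b read 183, 216 and 219 TPM in NSC and 248, 230.2 and 254 TPM in BP and was not called. Without NSC replicate 1, 26 G2 and M phase genes and 14 S phase genes were called higher in NSC. Without NSC replicate 2 the counts were 13 and 3, and without NSC replicate 3 they were 12 and 3. With 5 TPM added, 6 S phase genes were called.

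**Figure D4:**
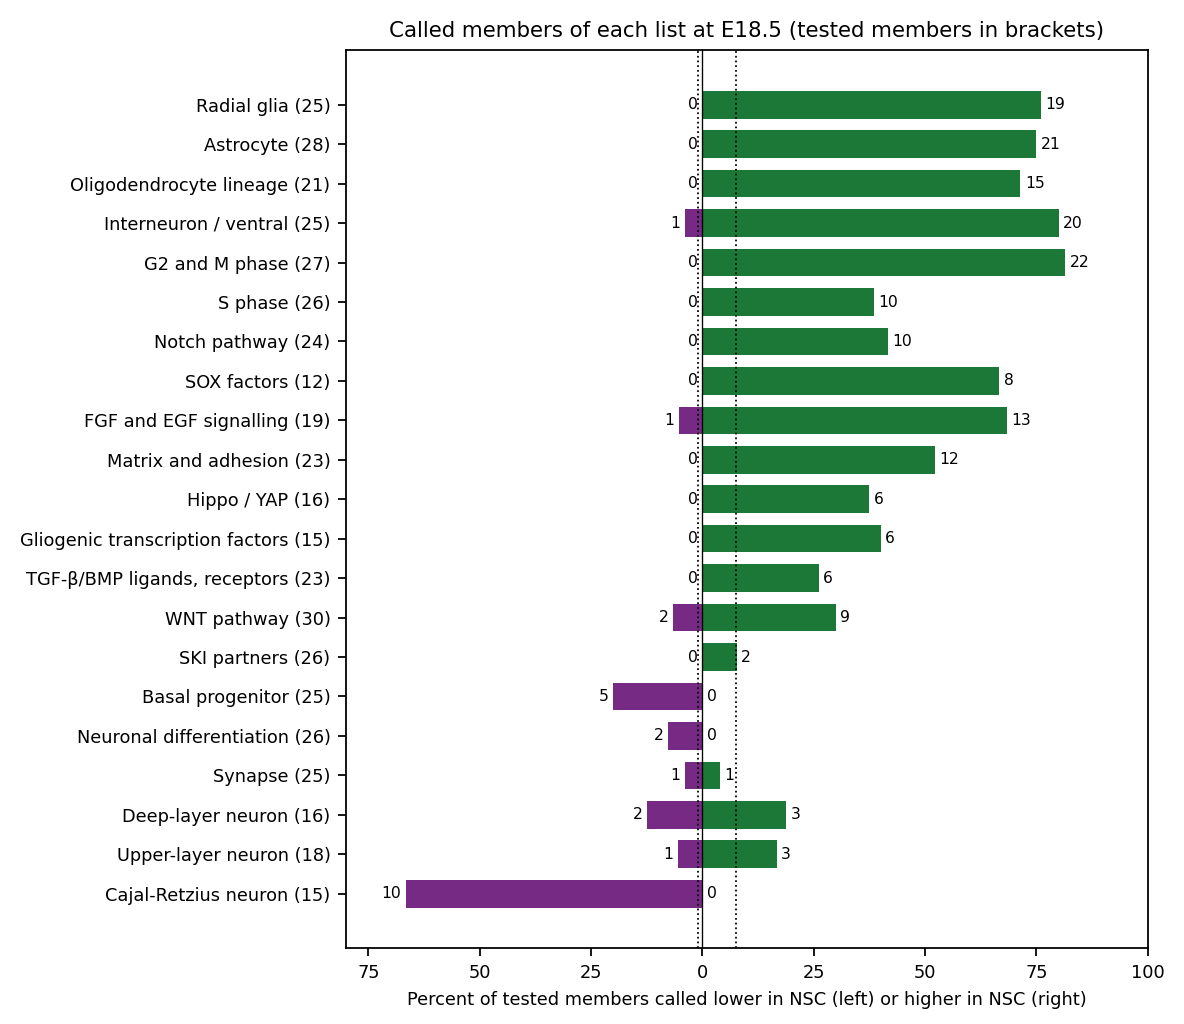
Percent of the tested members of 21 lists called higher in NSC (right) or lower in NSC (left) at E18.5, with the number called at the end of each bar, tested members in brackets, and dotted lines at the share over all tested genes, 7.54% and 0.945%. Radial glia, glial, ventral and G2/M lists reach far to the right, and the Cajal-Retzius list alone among those drawn reaches far to the left.

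Some basal progenitor genes were lower in NSC. Of 25 tested, 0 were called higher in NSC and 5 lower, where 0.945% of all tested genes were called lower, with a median of -0.48; without NSC replicate 1 the counts were 1 and 4, and with quantile scaling 1 and 7. Nhlh1 and Nhlh2, helix-loop-helix factors of cells leaving the cycle, had the largest differences. Nhlh1 had 14, 17 and 17.4 TPM in NSC and 73.2, 88.4 and 88.3 TPM in BP, with 1.47, 1.91 and 1.58 TPM in NBN, and differed by -2.30 ± 0.35 (adjusted p = 1.32e-06). Nhlh2 had 14.1, 3.83 and 2.52 TPM in NSC and 45.6, 56.4 and 58.9 TPM in BP, a difference of -3.09 ± 0.39 (adjusted p = 1.87e-08), and NSC replicate 1 held most of it among NSC. Neurod1, a neurogenic factor, had 117, 81.7 and 78 TPM in NSC and 219.7, 232 and 260.5 TPM in BP and was called at -1.38 ± 0.33 (adjusted p = 0.00116). Neurod4 had 7.8, 14.7 and 12.3 TPM in NSC and 24.3, 25.7 and 22.8 TPM in BP, at -1.05 ± 0.36 (adjusted p = 0.0314), and Mfap4, a matrix protein gene, had 123, 207 and 224 TPM in NSC and 353, 361 and 390.5 TPM in BP, at -1.04 ± 0.26 (adjusted p = 0.0023). The calls of Neurod4 and Mfap4 were lost without NSC replicate 1, and also under other alternatives.

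The neurogenic factor genes Neurog2 and Insm1 were not called, and neither were the list members Sstr2 and Igsf8. Neurog2, which starts neurogenesis, had 95.5, 222 and 211 TPM in NSC and 240.4, 253 and 203 TPM in BP, with overlapping ranges and a difference of -0.49 ± 0.30 (adjusted p = 0.282). Insm1, which drives delamination from the ventricle, read 174, 275 and 283 TPM in NSC and 324, 307 and 319.7 TPM in BP (difference -0.41 ± 0.20, adjusted p = 0.158). The receptor gene Sstr2 read 119, 207 and 202 TPM in NSC and 316, 276 and 296 TPM in BP (difference -0.79 ± 0.37, adjusted p = 0.132). Igsf8, a cell surface protein gene, had 204, 229.7 and 222 TPM in NSC and 425, 452 and 421 TPM in BP with no overlap, and its difference of -0.98 ± 0.20 (adjusted p = 0.000115) fell just short of the fold limit. In the 2 NSC libraries other than replicate 1, Eomes, Neurog2, Insm1 and Sstr2 all read higher than in replicate 1.

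Of the lists counted here, that of Cajal-Retzius cells had the largest share of genes lower in NSC. These early-born neurons of the cortical surface secrete reelin. Of 15 genes tested, 10 were called lower and 0 higher, with a median of -1.98, and without NSC replicate 1 the count was 11. Reln, which encodes reelin, had 24.8, 5.66 and 4.16 TPM in NSC and 104, 139.9 and 107 TPM in BP, with 180.5, 180.2 and 174 TPM in NBN. It differed by -3.61 ± 0.42 (adjusted p = 2.13e-09), with NSC replicate 1 above the other NSC libraries and below every BP library. Trp73, a p53 relative that marks these neurons, had 3.23, 1.7 and 1.35 TPM in NSC and 28, 40.3 and 26.1 TPM in BP and differed by -3.41 ± 0.43 (adjusted p = 1.13e-08). Calb2, encoding calretinin, had 42.4, 28.6 and 16.4 TPM in NSC and 134, 152 and 149 TPM in BP (difference -2.37 ± 0.48, adjusted p = 0.000135). Lhx5, a LIM factor, had 1.65, 0.502 and 0.297 TPM in NSC and 8.54, 11.4 and 7.46 TPM in BP (difference -2.53 ± 0.45, adjusted p = 1.66e-05), and Ndnf, a secreted factor, had 3.26, 1.26 and 1.71 TPM in NSC and 9.72, 12.1 and 11.3 TPM in BP (difference -2.02 ± 0.33, adjusted p = 3.78e-06). Cxcr4, the receptor that keeps these cells at the surface, had 77.3, 56.6 and 53 TPM in NSC and 102, 113 and 110.3 TPM in BP and stayed under the fold limit at -0.81 ± 0.22 (adjusted p = 0.00576). Nr2f2, a nuclear receptor gene, had 43.7, 4.82 and 3.88 TPM in NSC and 42.9, 58.4 and 28.8 TPM in BP, and with NSC replicate 1 among the BP libraries it was not called (difference -1.98 ± 0.77, adjusted p = 0.0566). In NBN of the same reporter line, Trp73 had 24.4, 27.7 and 23 TPM, Calb2 37.4, 49.2 and 57.1 TPM and Cxcr4 34.4, 32.2 and 37.6 TPM. NBN lay above BP for Reln, overlapped BP for Trp73, and were below BP for Calb2 and Cxcr4.

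Several other genes with large differences on the BP side followed the same pattern of 1 high NSC library. Rerg, a RAS-like protein gene, had 11.8, 1.36 and 0.816 TPM in NSC and 23.1, 24 and 33.4 TPM in BP (difference -2.85 ± 0.39, adjusted p = 1.02e-07). Rgs4, a regulator of G-protein signalling, had 6.29, 0.869 and 0.506 TPM in NSC and 15, 21.8 and 16.2 TPM in BP (difference -2.75 ± 0.47, adjusted p = 1.13e-05). Lhx9, a LIM factor, had 10.7, 2.69 and 1.63 TPM in NSC and 19.9, 25.5 and 29.1 TPM in BP (difference -2.40 ± 0.44, adjusted p = 3.88e-05), and Mia had 3.83, 0.804 and 1.84 TPM in NSC and 9.38, 14.6 and 8.62 TPM in BP (difference -1.99 ± 0.33, adjusted p = 6.58e-06). Grp, encoding gastrin-releasing peptide, had 33.1, 4.95 and 7.06 TPM in NSC and 35.1, 53.6 and 38.1 TPM in BP (difference -1.85 ± 0.42, adjusted p = 0.000733), a call lost when only the 6 libraries of E18.5 were fitted. Tmem132c had 8.53, 1.77 and 0.935 TPM in NSC and 9.02, 12.6 and 8.9 TPM in BP (difference -1.57 ± 0.32, adjusted p = 0.000188), lost in that fit and with 5 TPM added before taking logs. In each of these 6 genes replicate 1 was the highest of NSC and lay below the lowest BP library.

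The number of neuronal genes called lower in NSC depended on NSC replicate 1. Of 26 neuronal differentiation genes, 0 were called higher and 2 lower in NSC, with a median of -0.53, and 1 was called lower on leaving out NSC replicate 2, NSC replicate 3, BP replicate 1 or BP replicate 2. Of 25 synapse genes, 1 was called in each direction, where 7.54% of all tested genes were called higher and 0.945% lower. Without NSC replicate 1 the numbers called lower were 7 and 5, with medians of -0.73 and -0.56. Tubb3, the neuronal tubulin, had 1973, 1081 and 971 TPM in NSC and 1982, 2171 and 1993 TPM in BP, with 3516, 3716 and 3849 TPM in NBN. NSC replicate 1 lay just below the lowest BP library, and the difference of -0.68 ± 0.26 (adjusted p = 0.0485) stayed under the fold limit. Neurod6, a factor of excitatory neurons, had 588, 477 and 417 TPM in NSC and 769, 778 and 710.3 TPM in BP and did not pass at -0.62 ± 0.56 (adjusted p = 0.496). Nrp1, a semaphorin receptor of growing axons, had 215, 79.9 and 64.2 TPM in NSC and 279.7, 283 and 276 TPM in BP and was called at -1.43 ± 0.35 (adjusted p = 0.00183), a call lost when only the 6 libraries were fitted. Cntn2, an axonal adhesion molecule, was called at -1.14 ± 0.39 (adjusted p = 0.0267), and that call was lost under 5 alternatives. Syn2, encoding synapsin II, had 37.3, 28.9 and 30.3 TPM in NSC and 68, 70.7 and 75.9 TPM in BP and was called lower in NSC at -1.14 ± 0.29 (adjusted p = 0.00289). Camk2a, a kinase of excitatory synapses, went the other way with 10.1, 9.88 and 11.50 TPM in NSC and 1.8, 1.44 and 1.18 TPM in BP (difference 2.22 ± 0.28, adjusted p = 1.87e-08), alike in the 3 NSC libraries, and NBN held 11.4, 12 and 16.48 TPM.

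Markers of cortical layers were called in both directions. Of 16 deep-layer genes 3 were called higher and 2 lower in NSC, and of 18 upper-layer genes 3 were called higher and 1 lower, beside 7.54% higher and 0.945% lower over all tested genes. With 5 TPM added, 1 upper-layer gene was called higher. Mef2c, a factor of maturing neurons, had 135.4, 22 and 40.8 TPM in NSC and 9.91, 9.37 and 9.84 TPM in BP, with 373, 288 and 319 TPM in NBN. It was called at 2.25 ± 0.52 (adjusted p = 0.000945), and the lowest NSC library was above BP. Ntsr1, a marker of layer 6 neurons, had 22.3, 4.03 and 4.49 TPM in NSC and 1.85, 1.77 and 1.03 TPM in BP and Ldb2 had 31.1, 12.3 and 12.47 TPM in NSC and 7.66, 7.18 and 5.15 TPM in BP, called at 1.78 ± 0.40 (adjusted p = 0.000591) and 1.24 ± 0.39 (adjusted p = 0.016). The call of Ldb2 was lost without NSC replicate 1, and that of Ntsr1 with library weights and in the fit of the 6 libraries. The other deep-layer gene called higher was Ctgf, given below with the Hippo pathway. It had 11.46, 24.1 and 34 TPM in NSC but 0.686, 1.58 and 0.707 TPM in NBN, so its level here did not follow the neurons. Crym, a thyroid hormone binding protein gene, had 51.8, 1.57 and 1.01 TPM in NSC and 45.4, 79.6 and 39.5 TPM in BP, so replicate 1 lay among BP while the other NSC libraries were low. Its difference was -3.04 ± 0.70 (adjusted p = 0.000849), lost in the fit of the 6 libraries. Bhlhe22, a factor of upper-layer neurons, had 249, 95.9 and 80.7 TPM in NSC and 276, 306 and 285 TPM in BP (difference -1.21 ± 0.34, adjusted p = 0.00618), a call lost without NSC replicate 2, without NSC replicate 3 and in that fit. Bcl11b, which marks subcortical projection neurons, overlapped between classes and read 0.03, not called.

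Receptor tyrosine kinase genes and their feedback targets were higher in NSC. Of 19 FGF and EGF signalling genes tested, of 21 listed, 13 were called higher and 1 lower, with a median of 1.74. Of the FGF receptor genes, Fgfr2 and Fgfr3 were among those called. Fgfr2 had 49.9, 67.6 and 64.8 TPM in NSC and 18.9, 19 and 14.7 TPM in BP (difference 1.74 ± 0.23, adjusted p = 3.46e-08) and Fgfr3 had 46.4, 43.3 and 45.5 TPM in NSC and 13.6, 13.9 and 11.1 TPM in BP (difference 1.74 ± 0.24, adjusted p = 1.29e-07), while Fgfr1 read 202, 181 and 179.7 TPM in NSC and 228, 251 and 242 TPM in BP and was not called (difference -0.36 ± 0.16, adjusted p = 0.111). Among targets of the pathway, Spry2, a feedback inhibitor, differed by 1.86 ± 0.20 (adjusted p = 2.98e-10), Etv4 by 2.40 ± 0.33 (adjusted p = 1.05e-07) and Etv5 by 2.04 ± 0.40 (adjusted p = 0.000102). Dusp4, a phosphatase that acts on MAP kinases, was the 1 member lower in NSC, with 133, 138 and 124.8 TPM in NSC and 307, 321 and 313 TPM in BP (difference -1.25 ± 0.29, adjusted p = 0.000808).

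Some genes of the TGF-β and BMP pathways, in which SKI acts, were called higher in NSC. Of 23 ligand, receptor and extracellular inhibitor genes tested, 6 were called higher and 0 lower (median 0.32). Of 19 response genes, 5 were called higher and 0 lower (median 0.33). Over all tested genes 7.54% were called higher and 0.945% lower, so 0 lower is near the share over all genes. With 5 TPM added, 2 of the 23 were called. Bmp7 had 10.1, 15.7 and 20.9 TPM in NSC and 2.63, 2.33 and 2.26 TPM in BP (difference 2.23 ± 0.34, adjusted p = 1.41e-06), and Nog, the BMP antagonist noggin, had 8.93, 11.4 and 11.2 TPM in NSC and 1.43, 1.19 and 0.866 TPM in BP (difference 2.41 ± 0.28, adjusted p = 1.41e-09). The ID genes are BMP targets that block helix-loop-helix factors. Id1 had 23.3, 28.4 and 37.7 TPM in NSC and 4.41, 3.7 and 5.54 TPM in BP (difference 2.46 ± 0.31, adjusted p = 1.42e-08), Id3 had 39.6, 42.4 and 48.5 TPM in NSC and 4.11, 3.78 and 3.22 TPM in BP (difference 3.24 ± 0.48, adjusted p = 5.34e-07) and Id4 differed by 1.94 ± 0.32 (adjusted p = 5.82e-06). Id2 went the other way in level, with 453, 366 and 360.1 TPM in NSC and 621, 579 and 635 TPM in BP, under the fold limit at -0.64 ± 0.19 (adjusted p = 0.00935). Of 26 genes for SKI, SKI-binding proteins and their corepressor complexes, 2 were called higher and 0 lower, a share near the 7.54% over all genes. One of them was Smad3, a transducer of TGF-β signals, with 15.3, 16.9 and 18.7 TPM in NSC and 3.75, 4.01 and 3.16 TPM in BP (difference 1.95 ± 0.20, adjusted p = 5.46e-11) and 21.5, 16.3 and 17.54 TPM in NBN.

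WNT pathway genes were called in both directions: of 30 tested, 9 were higher in NSC and 2 lower, with 7 and 4 under quantile scaling and 5 and 0 with 5 TPM added. The ligand gene Wnt7a had 26.2, 31.8 and 37.9 TPM in NSC and 2.06, 2.82 and 2.21 TPM in BP (difference 3.28 ± 0.21, adjusted p = 1.84e-17). Tcf7l1, a factor that represses WNT targets, had 7.78, 9.39 and 11.7 TPM in NSC and 0.783, 0.98 and 0.748 TPM in BP (difference 2.52 ± 0.30, adjusted p = 3.92e-09), and the receptor gene Fzd8 had 17.4, 34.1 and 30.3 TPM in NSC and 9.32, 9.54 and 8.01 TPM in BP (difference 1.46 ± 0.32, adjusted p = 0.000545). The secreted inhibitor gene Sfrp1 was called at 1.27 ± 0.35 (adjusted p = 0.00553), a call lost without NSC replicate 3. Axin2, a general readout of the pathway, had 23.7, 28.8 and 30.5 TPM in NSC and 20.1, 21.3 and 19.4 TPM in BP, under the fold limit at 0.42 ± 0.14 (adjusted p = 0.0246). Lower in NSC were Lef1, at -1.0 ± 0.22 (adjusted p = 0.000465), and the ligand of LGR receptors Rspo3, at -1.09 ± 0.32 (adjusted p = 0.00917), and each call was lost without NSC replicate 3 and without BP replicate 2. In the Hippo pathway, which restrains the coactivators YAP and TAZ, 6 of 16 genes tested were called higher and 0 lower. The coactivator genes Yap1 and Wwtr1 differed by 2.45 ± 0.30 (adjusted p = 6.43e-09) and 2.78 ± 0.33 (adjusted p = 4.49e-09). Their target genes Cyr61 and Ctgf had 31.7, 66.1 and 77.2 TPM in NSC and 2.04, 1.78 and 1.08 TPM in BP, and 11.46, 24.1 and 34 TPM in NSC and 0.426, 0.391 and 0.758 TPM in BP. Both were called, at 4.42 ± 0.54 (adjusted p = 7.66e-09) and 3.87 ± 0.37 (adjusted p = 4.74e-12).

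Among 12 SOX factor genes, 8 were called higher in NSC and 0 lower, and the neuronal members Sox4 and Sox11 were not among them: Sox4 had 732, 725 and 705 TPM in NSC and 935, 858 and 936 TPM in BP and Sox11 402, 486 and 489 TPM in NSC and 586, 569 and 607 TPM in BP. Matrix and adhesion genes had 12 of 23 called higher and 0 lower, with Sparc, a matricellular protein gene, at 157, 225 and 274 TPM in NSC and 23.4, 19.5 and 13.6 TPM in BP (difference 3.46 ± 0.56, adjusted p = 3.26e-06) and the integrin gene Itgb5 at 29.3, 35.4 and 42 TPM in NSC and 1.29, 1.12 and 1.34 TPM in BP (difference 4.01 ± 0.34, adjusted p = 1.26e-13). The metallothionein gene Mt2 had 70.4, 149.9 and 177 TPM in NSC and 3.72, 4.57 and 4.41 TPM in BP (difference 4.57 ± 0.57, adjusted p = 9.26e-09). Cholesterol synthesis genes had 6 of 19 called higher and 0 lower, with Hmgcs1 at 524, 519 and 533 TPM in NSC and 218, 235 and 224 TPM in BP (difference 1.22 ± 0.20, adjusted p = 5.98e-06) and 664, 658 and 689 TPM in NBN, and Idi1 at 1.88 ± 0.26. Among 18 hypoxia and glycolysis genes, 1 was called, Egln3, at 2.58 ± 0.33 (adjusted p = 2.12e-08), a share near the 7.54% called higher over all tested genes. Of 15 genes of early progenitors, 4 were called higher in NSC and 0 lower; Hmga2, abundant in young stem cells, had 1.67, 2.89 and 1.81 TPM in NSC and 0.472, 0.407 and 0.354 TPM in BP, and its call (difference 1.13 ± 0.37, adjusted p = 0.021) was lost under 5 alternatives. The count of early progenitor genes was 2 without NSC replicate 2 and 1 with 5 TPM added.

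Markers of cells outside these lineages gave calls in single genes. Over all tested genes 7.54% were called higher in NSC and 0.945% lower, so 1 gene higher in a list of this size is near that share. Of 14 microglia and macrophage genes tested, 1 was called higher in NSC, Mrc1 (difference 1.26 ± 0.40, adjusted p = 0.0167), and 0 without NSC replicate 1, BP replicate 1 or BP replicate 2, 3 without NSC replicate 2 and 4 without NSC replicate 3. C1qa had 8.99, 1.54 and 1.34 TPM in NSC and 0.331, 0.488 and 0.253 TPM in BP and 19.3, 27.2 and 19.1 TPM in NBN. Endothelial and pericyte genes had 1 of 16 called in each direction, and Cldn5, an endothelial tight junction gene, had 1.04, 0.808 and 0.741 TPM in NSC and 8.22, 5.97 and 1.55 TPM in BP (difference -1.56 ± 0.52, adjusted p = 0.0254), a call lost under 6 alternatives. The summed erythroid genes, mostly globins, were at 269, 272 and 230 TPM in NSC and 629.6, 567 and 217 TPM in BP. Ttr, the choroid plexus transthyretin, had 11.4, 2.53 and 0.191 TPM in NSC and 108, 36.6 and 122 TPM in BP and the largest difference on the BP side, -4.42 ± 1.34 (adjusted p = 0.0125), but varied widely within each class, and the call was lost without NSC replicate 3 or BP replicate 3. Immediate early genes, which respond to cell handling, had 6 of 23 called higher in NSC and 0 lower. Egr1 had 36.1, 83.4 and 83.9 TPM in NSC and 4.11, 9.16 and 21.4 TPM in BP (difference 2.61 ± 0.68, adjusted p = 0.0032), and Fos had 50.3, 92.7 and 83.5 TPM in NSC and 6.86, 10.5 and 36.4 TPM in BP, with its call (difference 2.31 ± 0.80, adjusted p = 0.0306) lost under 4 alternatives. The part of these markers in the other differences was not tested.

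To see what set E18.5 apart from the days before it, the difference between NSC and BP at E18.5 was tested against the mean of the 6 daily differences from E12.5 to E17.5, over 20 NSC and 21 BP libraries. The difference at E18.5 lay above that mean for 529 genes (3.47%) and below it for 67 (0.44%), again at a departure of at least 1 on the log2 scale. Without NSC replicate 1 the counts were 714 (4.69%) and 206 (1.35%). The number below was 30 without NSC replicate 2, 27 without NSC replicate 3 and 41 without BP replicate 2. With quantile scaling 76.1% of the calls were above, against 88.8% as reported. Of the 529 genes, 461 were called higher in NSC at E18.5, and of the 67, 46 were called lower. Against E17.5 alone the counts were 1045 and 331.

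Oligodendrocyte lineage genes were 4 of the 8 largest departures above the earlier days. The 8 were Pdgfra, Olig1, Serpine2, Tnc, Gpr17, Hgf, Entpd2 and Sox10. The daily differences of Pdgfra from E12.5 to E18.5 were 0.42, 0.07, 0.58, 0.37, 1.19, 2.02 and 4.90, a departure of 4.13 ± 0.30 (adjusted p = 4.43e-15). Its mean level in NSC over those days was 1.26, 0.708, 1.17, 0.819, 2.95, 7.2 and 54.7 TPM, and in BP it stayed below 1 TPM. For Olig1 the daily differences were 1.90, 0.31, 1.62, 1.59, 1.82, 3.25 and 5.88, a departure of 4.13 ± 0.45 (adjusted p = 1.96e-09). Olig1 had mean NSC levels of 4.26, 0.575, 2.7, 2.25, 7.96, 27.7 and 213 TPM, higher on each of the last 3 days than on the day before. Olig2 departed by 2.72 ± 0.49 (adjusted p = 7.04e-05), and Sox10 and Gpr17 by 3.43 ± 0.27 (adjusted p = 4.46e-14) and 3.52 ± 0.23 (adjusted p = 1.52e-16). Egfr and Cspg4 departed by 3.00 and 2.20. In all, 11 of 21 oligodendrocyte lineage genes were above the earlier days and 0 below, and 7 were above with 5 TPM added.

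Astrocyte genes did the same in 16 of 28 cases, with 0 below. Aldh1l1 had daily differences of 0.88, 0.96, 2.19, 1.88, 1.59, 2.49 and 5.08, and its NSC levels were 1.84, 1.35, 4.21, 3.69, 8.61, 17 and 106 TPM. The departure was 3.41 ± 0.33 (adjusted p = 3.26e-11). Aqp4 had differences of -0.28, 0.14, 0.02, -0.06, 0.13, 0.36 and 2.73, near 0 until E17.5, a departure of 2.68 ± 0.18 (adjusted p = 2.04e-16). Gfap had NSC levels of 0.0654, 0.0279, 0.128, 0.504, 1.88, 8.94 and 30.9 TPM and BP levels of 0.0455, 0, 0.106, 0.19, 1.62, 4.64 and 10.2 TPM, with the highest mean of each class at E18.5, and its departure was 1.31 ± 0.31 (adjusted p = 0.00269). Hepacam, Apoe, Mlc1 and Clu departed by 2.98, 2.14, 1.78 and 1.64. Of the gliogenic factors, Klf15 and Zcchc24 were above the earlier days, by 1.63 and 1.5. Hgf, encoding hepatocyte growth factor, had NSC levels of 0.0512, 0.107, 0.17, 0.132, 0.363, 1.03 and 14.8 TPM and departed by 3.46 ± 0.19 (adjusted p = 1.13e-19). Serpine2, a protease inhibitor gene, and Entpd2, an ATP-degrading enzyme gene of radial glia, departed by 3.86 ± 0.39 (adjusted p = 2.78e-10) and 3.45 ± 0.25 (adjusted p = 3.91e-15).

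Of the radial glia genes, Fabp7 and Sox2 had a gap that was narrower at E16.5 and E17.5 than at E12.5 and wider again at E18.5, and the Notch receptor gene Notch1 did likewise, whereas Tnc and Hopx followed another course. Fabp7 had daily differences of 3.79, 2.77, 2.11, 1.58, 1.39, 1.68 and 3.98 and departed by 1.75 ± 0.35 (adjusted p = 0.000337). Its NSC level was 616, 590.4, 503, 412, 567, 629 and 3226 TPM over the 7 days. Notch1 had 1.76, 1.77, 1.73, 1.45, 0.48, -0.03 and 1.95, so that the classes were level at E17.5, and Sox2 had 3.20, 2.67, 2.55, 1.71, 0.999, 0.45 and 2.09. Tnc had -0.13, 0.83, 2.86, 3.56, 2.36, 3.06 and 5.68, with the smallest gap at E12.5, and Hopx had 1.09, 2.12, 2.53, 2.61, 1.496, 2.00 and 3.17, also smallest at E12.5. Neither Notch1 nor Sox2 departed from the mean of the earlier days by the limits used, whereas Tnc (3.59), Ednrb (2.27), Ddah1 (2.12), Mfge8 (1.48) and Vim (1.17) did. In all, 8 of 25 radial glia genes were above, 11 without NSC replicate 1 and 4 without NSC replicate 3. Of the 24 Notch genes 4 were above, Notch2, Jag1, Lfng and Hey1, at 1.02, 1.68, 1.64 and 1.07, with 7 above without NSC replicate 1 and 2 above without NSC replicate 2, NSC replicate 3 or BP replicate 1. Mki67 had daily differences of 0.29, 0.65, 0.67, -0.49, -0.19, -0.69 and 1.80, and 3 of 27 G2 and M phase genes were above. That count was 16 without NSC replicate 1, 0 without NSC replicate 2, NSC replicate 3 or BP replicate 2, and 1 without BP replicate 3. It was also 11 with a replicate block, 8 with quantile scaling, 5 with 5 TPM added and 1 with 0.1 TPM added.

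Over all tested genes, 3.47% were above the earlier days and 0.44% below. Of the 25 ventral genes, 2, Gsx2 and Etv1, were above the earlier days, by 1.60 ± 0.47 (adjusted p = 0.0223) and 3.25 ± 0.65 (adjusted p = 0.000358), and 0 below. The count above was 1 without NSC replicate 2, NSC replicate 3, BP replicate 1 or BP replicate 2, 1 with quantile scaling or with 0.1 or 5 TPM added, and 4 with a replicate block. Etv1 had daily differences of -1.81, -1.82, 0.999, -0.21, 0.27, 0.44 and 2.90, so that its E18.5 difference was the largest of the 7 days. Dlx1 had daily differences of 4.75, 3.30, 4.88, 3.47, 3.45, 4.06 and 5.21, and its NSC levels were 99.4, 41.4, 98.6, 25.2, 40, 71.1 and 148 TPM. Gad1 had 4.25, 2.24, 3.93, 3.06, 2.53, 2.93 and 3.38. For Dlx1 and Gad1 the gap was present from E12.5 on.

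**Figure D5:**
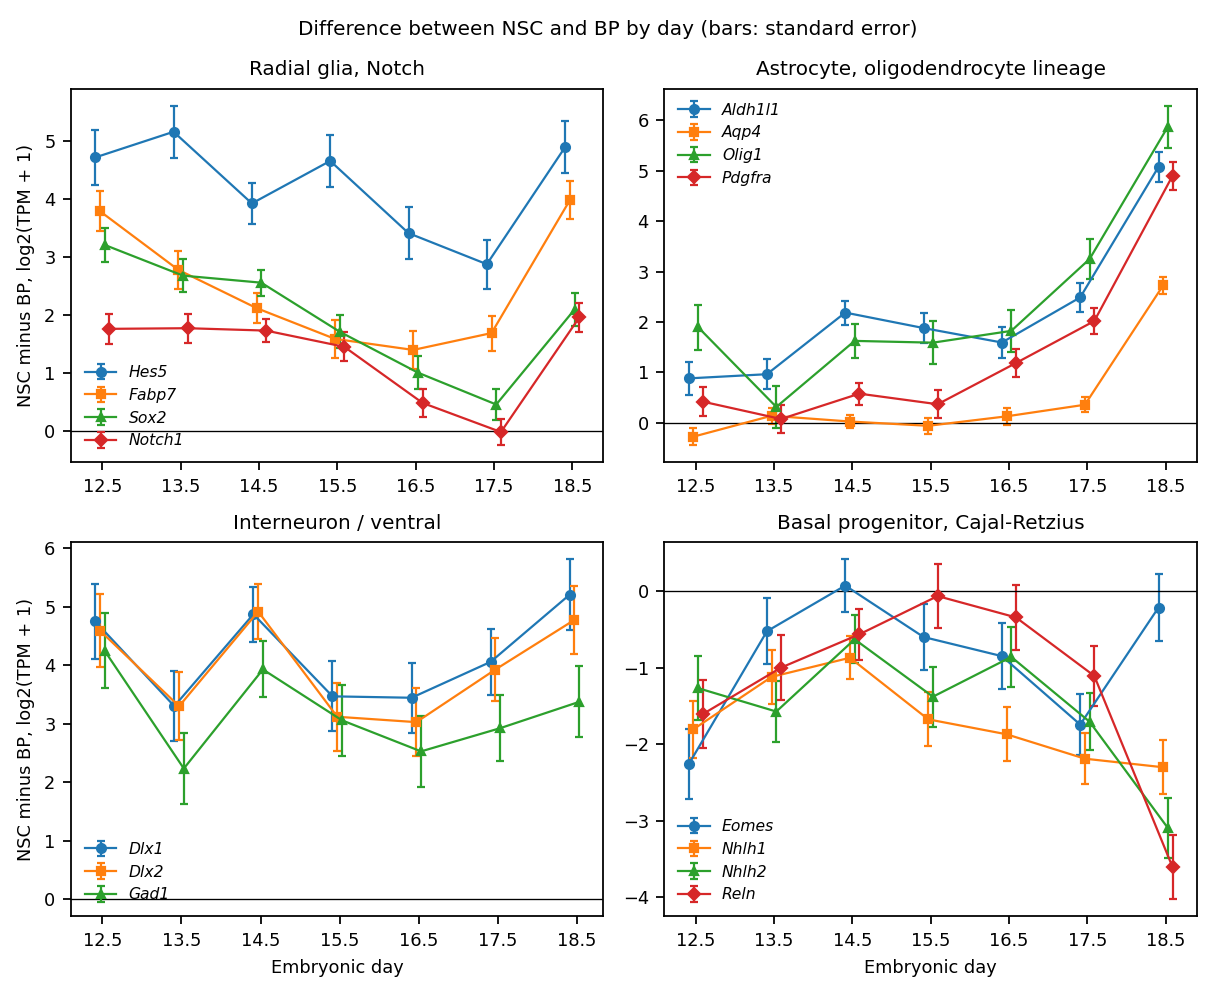
Difference between NSC and BP in log2(TPM + 1) (y axis) on each embryonic day from E12.5 to E18.5 (x axis) for 15 genes in 4 groups, with standard errors of the fit. The glial genes climb at E17.5 and E18.5, the radial glia and Notch genes drawn are lowest at E16.5 or E17.5 and higher at E18.5, the ventral genes drawn stay above 2 on each day, and Nhlh2 and Reln reach their lowest point at E18.5.

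Of 15 Cajal-Retzius genes 8 were below the earlier days and 0 above. The count below was 5 without NSC replicate 2, 4 without NSC replicate 3, 5 without BP replicate 2 and 4 with 5 TPM added. Over all genes called for it that averaged 10 TPM or more in either class, the 8 largest departures below were Ttr, Crym, Reln, Rgs4, Ndnf, Trp73, Tmem132c and Nhlh2. Reln had daily differences of -1.61, -0.998, -0.56, -0.06, -0.34, -1.11 and -3.61, with NSC levels of 52, 66.1, 77.3, 54.5, 86.1, 47.7 and 11.55 TPM and BP levels of 144.6, 133, 113, 56.8, 109, 97.8 and 117 TPM. The departure of -2.83 ± 0.45 (adjusted p = 9.59e-06) came with a low NSC level at E18.5, while BP stayed in their earlier range. Trp73 departed by -2.07 ± 0.46 (adjusted p = 0.00147) and Ndnf by -2.42 ± 0.35 (adjusted p = 1.47e-06). Nhlh2 had daily differences of -1.27, -1.57, -0.63, -1.38, -0.86, -1.71 and -3.09 and departed by -1.86 ± 0.42 (adjusted p = 0.00204), while Nhlh1, with -1.80, -1.12, -0.87, -1.67, -1.87, -2.19 and -2.30, was not called. Crym departed by -2.99 ± 0.75 (adjusted p = 0.00602) and Rgs4 by -2.65 ± 0.51 (adjusted p = 0.000209). Ttr had differences of 1.70, -0.37, 1.66, -4.02, 2.28, 0.27 and -4.42, which changed sign between days, and a departure of -4.67 ± 1.44 (adjusted p = 0.0331). Eomes, at -2.26, -0.52, 0.07, -0.60, -0.85, -1.74 and -0.21, was not called, and its largest gaps were on E12.5 and E17.5.

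Among signalling genes, Spry2 and Etv4 of the FGF and EGF list were above the earlier days by 1.68 ± 0.22 (adjusted p = 9.19e-08) and 1.47 ± 0.35 (adjusted p = 0.00388), with 6 of 19 members above and 0 below. Bmp7 and Id1 were above by 2.01 ± 0.37 (adjusted p = 0.000108) and 1.27 ± 0.33 (adjusted p = 0.00922). In the WNT list 2 of 30 were above and 3 below (6 without NSC replicate 1, 1 without NSC replicate 3 and 0 with 5 TPM added), with Wnt7a at 1.17 and Lef1 at -1.14. The shares over all tested genes were 3.47% above and 0.44% below. Matrix and adhesion genes had 8 of 23 above, with Itgb5 at 2.80. Foxj1, the switch for motile cilia of ependymal cells, had NSC levels of 10.7, 9.84, 7.7, 5.93, 6.47, 6.24 and 19.3 TPM and was called at E18.5 (difference 2.21 ± 0.22, adjusted p = 1.69e-11) and above the earlier days by 2.08 ± 0.23 (adjusted p = 3.96e-09). With it, 6 of 12 ependymal and ciliary genes tested, of 17 listed, were above and 0 below, and with 5 TPM added 1 was above.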

How the data were processed

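RNA of sorted GFP-positive cells was sequenced as single 50-base reads, per the labels' protocols. Transcript levels were quantified with kallisto 0.43.0, and builds GRCm38.p2 and mm10 used, as given in the submitters' processing notes. The deposited table holds TPM made by the authors for 23078 genes; its columns sum to 999998 to 1000002, so read depth is unknown and errors here come from differences among libraries. In limma 3.58.1 (R 4.3.3, with trend), log2(TPM + 1) was fitted with a mean for each of 19 groups over all 63 libraries, which share 1 estimate of the spread. A gene was tested if 3 or more libraries reached 1 TPM (15231 genes). Calls needed a Benjamini-Hochberg adjusted p under 0.05 over all tested genes and a log2 difference of at least 1. Differences on this scale understate changes of low genes.

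Genes were named if among the 12 largest called differences in each direction (mean of at least 10 TPM, no overlap) or the 8 largest departures. Members of 37 lists could be named too. Of 717 list entries 715 were found, and these held 665 distinct genes, so some genes count in more than 1 list. Nhlh2, for example, counts among both the basal progenitor and the Cajal-Retzius genes. Some genes the rule would name are not reported here. The members, lists and genes were chosen with earlier results of these data known. On simulated data 94% of changes of 1.5 and 99% of changes of 3 on the log2 scale were called between the classes, with 6 false calls, and 91% and 99% with 8 false calls for departures (15231 genes, 100 changed per size). The changed genes were drawn only from those well above the floor in BP of E18.5. The noise was Gaussian and independent, and no library stood apart. These rates therefore do not cover low genes or a library that departs from its group. Alternatives were other added values, filters and scalings, library weights, a Y-linked covariate, a replicate block, subsets of libraries and leaving out each library. Promoter sequence is RefSeq's, of GRCm38.p6, and is described by its letters.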

Additional observations from a re-analysis of the deposited data

Results flagged for a closer look

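The results below were singled out because the difference between NSC and BP at E18.5 departed from the mean of the daily differences of E12.5 to E17.5, by the test of the departure itself (limma, adjusted p under 0.05 and at least 1 on the log2 scale). Each value is that departure, positive where NSC gained on BP at E18.5. All of these departures were also called without NSC replicate 1, but over all genes that choice raised the counts, from 529 to 714 above and from 67 to 206 below. Without NSC replicate 2 they fell to 424 and 30, and without NSC replicate 3 to 374 and 27. Which of the genes below stay called in those 2 fits is not given here.

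Oligodendrocyte lineage genes departed by 4.13 for Olig1, 4.13 for Pdgfra, 3.52 for Gpr17, 3.43 for Sox10, 3.00 for Egfr, 2.72 for Olig2 and 2.20 for Cspg4. Astrocyte genes departed by 3.41 for Aldh1l1, 2.98 for Hepacam, 2.68 for Aqp4, 2.14 for Apoe, 1.78 for Mlc1, 1.64 for Clu and 1.31 for Gfap. The gliogenic factor genes departed by 1.63 for Klf15 and 1.5 for Zcchc24. Radial glia genes departed by 3.59 for Tnc, 2.27 for Ednrb, 2.12 for Ddah1, 1.75 for Fabp7, 1.48 for Mfge8 and 1.17 for Vim. Notch genes departed by 1.68 for Jag1, 1.64 for Lfng, 1.07 for Hey1 and 1.02 for Notch2.

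Other genes with a wider NSC side at E18.5 were Serpine2 at 3.86, Hgf at 3.46, Entpd2 at 3.45, Itgb5 at 2.80, Foxj1 at 2.08 and Idi1 at 1.12. Signalling and cycle genes were Bmp7 at 2.01, Ctgf at 1.90, Spry2 at 1.68, Etv4 at 1.47, Ccnd1 at 1.34, Id1 at 1.27, Wnt7a at 1.17 and Ccnd2 at 1.08. Ventral and neuronal genes were Etv1 at 3.25, Camk2a at 1.77 and Gsx2 at 1.60.

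In the other direction, Cajal-Retzius and related genes departed by -2.83 for Reln, -2.42 for Ndnf, -2.07 for Trp73, -1.86 for Nhlh2, -1.72 for Lhx5 and -1.02 for Cxcr4. Further genes below the earlier days were Ttr at -4.67, Crym at -2.99, Rgs4 at -2.65, Tmem132c at -1.86, Rerg at -1.83, Mia at -1.54, Grp at -1.5 and Lef1 at -1.14. NSC replicate 1 was the highest NSC library for all of these 14 genes, and its part in them was measured by leaving it out: the departure of Crym was then -4.51, that of Reln -3.54 and that of Tmem132c -2.55.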

How the results depend on the processing

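No gene named in the text that was called, as reported or under an alternative, changed direction between those fits. Of 160 genes named, 121 were called, and 98 of these were called under every alternative that gave a value; the 23 others are Hmga2, Mki67, Hey1, Socs2, Prox1, Neurod4, Mfap4, Ldb2, Ntsr1, Crym, Nrp1, Cntn2, Bhlhe22, Top2a, Sfrp1, Lef1, Rspo3, Ttr, Cldn5, Mrc1, Fos, Grp and Tmem132c. The counts of genes moved more, and the cause was not tested. With 5 TPM added, 593 genes were higher and 64 lower in NSC, and 230 were above and 19 below the earlier days. With 0.1 TPM added, 218 were lower. Requiring a mean of 5 TPM left 662 higher, 208 above and 37 below, among fewer genes tested. Quantile scaling gave 287 lower and 113 below. Library weights, whose estimation stopped before convergence, gave 352 lower, 836 above and 296 below. With the adjusted p alone, 2333 were higher, 992 lower, 946 above and 283 below, and against E17.5 alone 1045 were above and 331 below. Leaving out 1 library at a time gave 973 to 1340 higher, 83 to 336 lower, 374 to 714 above and 27 to 206 below. The lowest counts came without NSC replicate 3 and the highest without NSC replicate 1; without NSC replicate 2, 30 were below, and without BP replicate 2, 41. The remaining alternatives (no filter, median-of-ratios scaling, a Y-linked covariate, the 6 libraries alone, only NSC and BP libraries, against E12.5 to E16.5) stayed within 1.5 times of each count as reported.

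Replicate numbers did not pair the libraries: same-numbered NSC and BP libraries deviated from their group means with correlations of -0.22, -0.215 and 0.05, and 1 of the 6 libraries (BP replicate 3) correlated best with its own number. With a replicate block the counts were 1176 higher and 150 lower, and 593 above and 80 below. The deposited TPM carry no read depth, so no counting error could be given for low genes.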
